A study of Sus scrofa with 8 samples.

Results

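The 4 receptors and 4 ligands of the fibroblast growth factor (FGF) family, 8 of the 25578 genes measured, were followed through the differentiation of pig (Sus scrofa) pluripotent stem cells towards lung. They were FGFR1, FGFR2, FGFR3 and FGFR4, and FGF2, FGF8, FGF10 and FGF17. Genes were picked by symbol, which found 7 of them. The row of FGF2 carries no symbol and was matched by its Ensembl identifier (ENSSSCG00000036213) and its description. The 4 stages were pluripotent stem cells (PSC), definitive endoderm (DE, the embryonic layer that forms gut, liver and lung epithelium), anterior foregut endoderm (AFE, its front portion, where lung buds arise) and lung progenitor organoids (LPO). Each stage had 2 libraries of messenger RNA, and no genotype, cell line, day, medium or added growth factor is given in the sources used here, so whether an FGF was added to the cultures at a stage is not known from them. The labels do not state whether libraries of 1 stage are from separate cultures, so the spread behind each p-value is only that between these samples and may be technical.

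FGFs are secreted proteins that bind receptor tyrosine kinases together with heparan sulfate, the sugar chain of cell-surface proteoglycans. The bound receptors pair up, phosphorylate the adaptor FRS2 and switch on the RAS to ERK kinase cascade, which in turn raises transcription of its own inhibitors (the SPRY and DUSP genes) and of ETV transcription factors. In the mouse, FGF10 from lung mesenchyme acts on an epithelial splice form of FGFR2 and is required for the lung buds to grow out, and FGF8 is required for cells to move through the primitive streak. FGF2 is widely used to keep pluripotent cells in culture.

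Values are given on both deposited and computed scales. FPKM (fragments scaled by transcript length and by library total), made by the authors, allows levels to be compared between genes because it is per length. The deposited counts carry no scaling; for tests they were scaled with TMM, a method that corrects for libraries in which a few genes take many reads, and are given as CPM (counts per 1e6 scaled counts). The scales differ in LPO: TMM factors were 1.26 and 1.27 in its libraries, against 0.901 to 0.954 in the other stages, while FPKM followed the total count: divided by the total count of its library, the count per FPKM of a member varied by no more than 1.02 times over the 3 to 8 libraries in which it reached 1 FPKM. An LPO level therefore stands higher in FPKM than in CPM relative to the other stages. With total counts in place of TMM, the median log2 change of all genes in LPO against AFE was 0.58, against 0.09 with TMM. The share of called genes that were higher was then 64.9%, against 50.5% with TMM. In LPO against PSC the corresponding median changes were 0.91 and 0.49, with 67.4% and 59% of called genes higher. Changes below are from the TMM-scaled counts, and calls that turn on the scaling are marked.

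Total counts were 36004372 to 67566269 per library. About 4 counts were taken as 1 read pair, a ratio not given in the sources used here. It was read from counts of 1 to 12, of which 46.4% to 50.7% per library were 4, 8 or 12. With that ratio the floor of 3 pairs (12 counts) lies at 0.15 to 0.357 CPM, and it covers counting error only. The floor in pairs, the bounds and the counting intervals below depend on this ratio. Defining markers went with the stage labels in part. Of 5 pluripotency markers, 1 was called higher and 4 lower in DE against PSC. Of 5 endoderm markers, 5 were called higher and 0 lower there. POU5F1, the pluripotency factor, had 3063 and 3457 FPKM in PSC and still 259 and 253 FPKM in DE. LIN28A, of the same list, was 7.72-fold higher in DE than in PSC. SOX2 had 38.1 and 38.4 FPKM in LPO, against 5.83 and 4.11 FPKM in PSC. SOX17, a factor of endoderm, had 91.7 and 83.0 FPKM in DE. CXCR4, also of the endoderm list, had 17.5 and 16.6 FPKM in AFE, against 15.7 and 11.2 FPKM in DE. NKX2-1, the earliest lung factor, had 0 counts in PSC and DE, 7.94 and 7.62 FPKM in AFE and 18.7 and 18.9 FPKM in LPO. Of 6 foregut markers, 2 were called higher (SOX2 and PAX9) and 2 lower (FOXA2 and HHEX) in AFE against DE. SOX2 had 4.78 and 5.86 FPKM in AFE, against 0.1 and 0.06 FPKM in DE. PAX9 had only 0.24 and 0.13 FPKM in AFE. TBX1 had 5.32 and 5.02 FPKM in AFE, against 1.43 and 1.74 FPKM in DE, and was not called. HHEX had 1.31 and 1.15 FPKM in AFE, against 35.6 and 32.1 FPKM in DE. Of 9 lung markers, 6 were called higher and 2 lower in LPO against AFE. Mesenchymal markers were high in LPO: the 13 genes of that list in the table summed to 2750 and 2800 FPKM there, against 119 and 122 FPKM in AFE, and 12 of the 13 were higher and 0 lower in LPO than in AFE by the edgeR quasi-likelihood test, with 13 and 0 at an unadjusted p under 0.05. The 6 epithelial markers summed to 2150 and 2230 FPKM in LPO, against 12700 and 13000 FPKM in AFE, sums that are mostly KRT8 and KRT18, with 1 called higher and 5 lower. CDH1, the one that was higher, had 132 and 133 FPKM in LPO, against 75.7 and 73.5 FPKM in AFE. The 3 neural markers tested were all called higher in LPO than in AFE. The 4 listed summed to 128 FPKM in both LPO libraries, against 40.9 and 40.4 FPKM in AFE, most of it NES. PAX6 had only 52 and 32 counts in LPO, and SOX1, not tested, had 0 and 2. TUBB3 had 7.83 and 8.85 FPKM in LPO, against 140 and 122 FPKM in PSC. DCN, LUM, TBX4, TBX5, POSTN and TWIST1, all of the mesenchymal list, were at 0 in PSC, and TBX5 also in DE. In bulk samples such as these, fewer cells of a type and less RNA per cell cannot be told apart.

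Calls rest on edgeR's quasi-likelihood test over 19346 genes, at an adjusted p (Benjamini-Hochberg) below 0.05. With 2 libraries against 2, an exact permutation test of a single gene cannot go below 0.333 (two-sided), and none is reported. All 8 members passed the filter on low counts and all 8 were called in the F test among stages, as were 79.2% of genes tested. In DE against PSC, 4 members were called higher (FGFR1, FGFR3, FGFR4 and FGF10) and 3 lower (FGFR2, FGF2 and FGF17), beside 30.8% of all genes called higher and 23.0% lower. In AFE against DE, 2 were called higher (FGFR2 and FGF2) and 5 lower (FGFR1, FGFR3, FGFR4, FGF8 and FGF17), beside 17.9% and 17.4% of all genes. LPO against AFE had 4 members called higher (FGFR1, FGFR3, FGFR4 and FGF2) and 0 lower, beside 30.2% and 29.6%; at an unadjusted p under 0.05 edgeR had 1 lower, and so did the DESeq2 Wald test at its adjusted p (FGF8, at or under the floor in both stages). LPO against PSC, the net change, had 4 called higher (FGFR1, FGFR3, FGF2 and FGF10) and 4 lower (FGFR2, FGFR4, FGF8 and FGF17), beside 41.5% and 28.8%. AFE against PSC had 3 higher (FGFR3, FGF2 and FGF10) and 4 lower (FGFR2, FGFR4, FGF8 and FGF17), beside 32.8% and 24.0%, and LPO against DE had 2 higher (FGFR2 and FGF2) and 4 lower (FGFR3, FGFR4, FGF8 and FGF17), beside 31.6% and 31.1%. These steps share libraries, so the values of a member in neighbouring steps are not independent of each other.

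**Figure D1:**
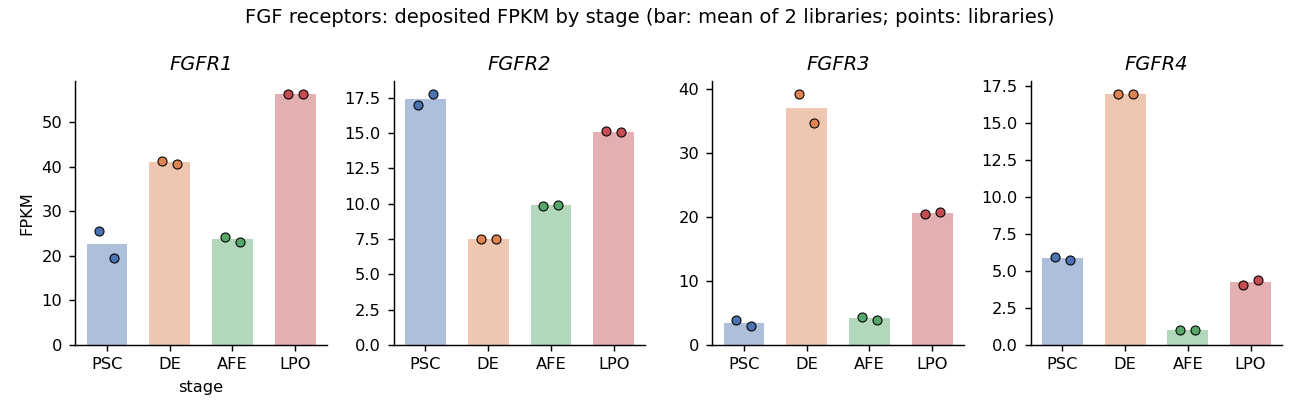
FPKM of the 4 FGF receptors in each of the 8 libraries, by stage in the order of differentiation; points are libraries and bars their mean (n = 2). FGFR3 and FGFR4 peak in DE at means of 36.9 and 17.0 FPKM, FGFR2 is lowest there at 7.5 FPKM, and FGFR1 reaches 56.3 FPKM in LPO.

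FGFR3 and FGFR4 rose in DE, fell steeply in AFE and rose in part again in LPO. FGFR3, known in mouse and human as a brake on bone growth, lies on chromosome 8 at 879159 to 894964 (plus strand; coordinates as deposited, on a build not given in the sources used here). Its libraries had 3.81 and 2.98 FPKM in PSC, 39.2 and 34.6 in DE, 4.39 and 3.91 in AFE and 20.4 and 20.8 in LPO. Both DE libraries thus stood above every other library, LPO came next, and PSC and AFE lay close together. Behind these values stand deposited counts of 491 to 11201 per library. FGFR3 was 11.1-fold higher in DE than in PSC (log2 change 3.48, SE 0.13, edgeR quasi-likelihood adjusted p = 8.2e-07). It was 8.61-fold lower in AFE than in DE (log2 change -3.11, SE 0.13, adjusted p = 4.5e-06). LPO stood 3.53-fold above AFE (adjusted p = 6.7e-06), still 2.44-fold below DE (adjusted p = 3.8e-05) and 4.57-fold above PSC (adjusted p = 1.8e-06). The small difference of AFE over PSC, 1.29-fold at an adjusted p of 0.0337, was lost under 13 alternatives, with adjusted p up to 0.188.

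FGFR4 is the receptor that, with beta-klotho, answers FGF19 in liver. It lies on chromosome 2 at 80841536 to 80853796 (minus strand). FPKM was 5.95 and 5.75 in PSC and 17.0 in both DE libraries, then 0.99 and 1.03 in AFE, and 4.07 and 4.37 in LPO. DE was the highest stage and AFE the lowest, with PSC somewhat above LPO. The rise in DE against PSC was 2.97-fold (log2 change 1.57, SE 0.10, adjusted p = 9.0e-06). The fall in AFE against DE was 16.2-fold (log2 change -4.02, SE 0.12, adjusted p = 7.7e-07), the deepest of any receptor at any step. LPO was 2.96-fold above AFE (adjusted p = 7.4e-06) and 1.84-fold below PSC (log2 change -0.88, SE 0.10, adjusted p = 1.1e-04). That last call ended on rescaled FPKM, where the log2 change was -0.08 (adjusted p = 0.432). A microRNA gene, ssc-mir-7138, lies within FGFR4 and had 0 to 2 counts per library.

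FGFR2 went the other way at the first step. The gene, on chromosome 14 at 131181725 to 131289425 (minus strand), makes an epithelial and a mesenchymal form by alternative splicing; the table gives 1 value per gene and does not separate them. Its libraries had 17.0 and 17.8 FPKM in PSC, 7.52 and 7.49 in DE, 9.87 and 9.90 in AFE, and 15.2 and 15.1 in LPO. PSC was highest, DE lowest, and the libraries of DE, AFE and LPO agreed within 0.1 FPKM at each stage. FGFR2 fell 2.26-fold in DE against PSC (log2 change -1.18, SE 0.08, adjusted p = 8.3e-06) and rose 1.36-fold in AFE against DE (adjusted p = 0.00284). LPO and AFE were not distinguished in the main fit (1.09-fold higher in LPO, log2 change 0.12, SE 0.07, adjusted p = 0.206). With total counts, edgeR gave a log2 change of 0.61 (adjusted p = 1.7e-04). TMM over only the genes with 5 FPKM in 2 libraries also called LPO higher (log2 change 0.39, edgeR adjusted p = 0.00175). LPO was 1.53-fold below PSC (adjusted p = 1.5e-04), and this reversed to a log2 change of 0.18 (adjusted p = 0.0388) on rescaled FPKM.

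FGFR1, the receptor on which the mouse embryo depends at gastrulation, alternated between stages. It lies on chromosome 15 at 48053340 to 48106718 (plus strand). Its libraries had 25.6 and 19.6 FPKM in PSC, 41.3 and 40.6 in DE, 24.3 and 23.1 in AFE and 56.4 and 56.2 in LPO. DE and LPO were the high stages, PSC and AFE the low ones, and PSC and AFE overlapped. FGFR1 was 1.86-fold higher in DE than in PSC (log2 change 0.90, SE 0.11, adjusted p = 2.5e-04), 1.67-fold lower in AFE than in DE (adjusted p = 0.0015) and 1.69-fold higher in LPO than in AFE (adjusted p = 5.0e-04). In CPM, the levels were 193 ± 0.272 in LPO and 192 ± 2.28 in DE (SD, n = 2 each), a difference that was not called (log2 change 0.01, adjusted p = 0.923). With total counts, edgeR called LPO higher (log2 change 0.47, adjusted p = 0.00881). TMM over only the genes with 5 FPKM in 2 libraries did so too (log2 change 0.31, edgeR adjusted p = 0.0174). AFE against PSC was not called (log2 change 0.16, adjusted p = 0.254), but was without PSC replicate 1, at 0.35 (adjusted p = 0.00399). The rise of FGFR1 in LPO against AFE stood beside the 12 of 13 mesenchymal markers higher there, whose part in it was not tested.

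**Figure D2:**
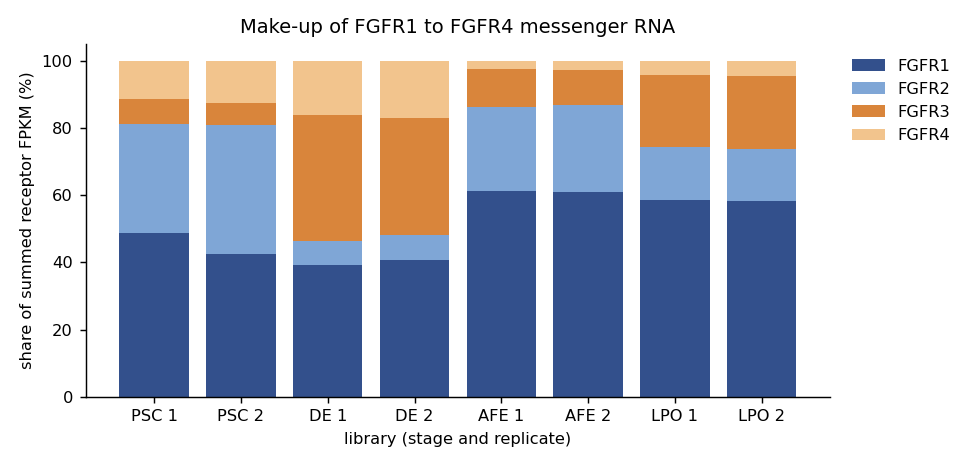
Share of the summed FPKM of the 4 receptors held by each, in percent, in each of the 8 libraries grouped by stage. FGFR2 holds 7.16% and 7.51% in DE, and FGFR1 holds over 58% in every AFE and LPO library.

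The makeup of the receptor messages differed between stages. Summed over the receptors, FPKM was 52.4 and 46.1 in PSC, 105 and 99.7 in DE, 39.5 and 38.0 in AFE and 96.0 and 96.5 in LPO. FGFR1 held 45.6 ± 4.6% of that sum in PSC, 40 ± 0.99% in DE, 61.2 ± 0.35% in AFE, then 58.5 ± 0.28% in LPO (mean ± SD, n = 2 at each stage). FGFR2 held 35.5 ± 4.4% in PSC, 7.34 ± 0.25% in DE, 25.6 ± 0.78% in AFE, then 15.7 ± 0.14% in LPO. FGFR3 held 6.88 ± 0.57% in PSC, 36.0 ± 1.8% in DE, 10.7 ± 0.57% in AFE, then 21.4 ± 0.14% in LPO. FGFR4 held 12 ± 0.78%, 16.6 ± 0.57%, 2.60 ± 0.15% and 4.38 ± 0.21% in PSC, DE, AFE and LPO. In both PSC and AFE the order was FGFR1 then FGFR2, and in DE and LPO FGFR3 came second. These shares do not depend on the scaling between libraries.

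**Figure D3:**
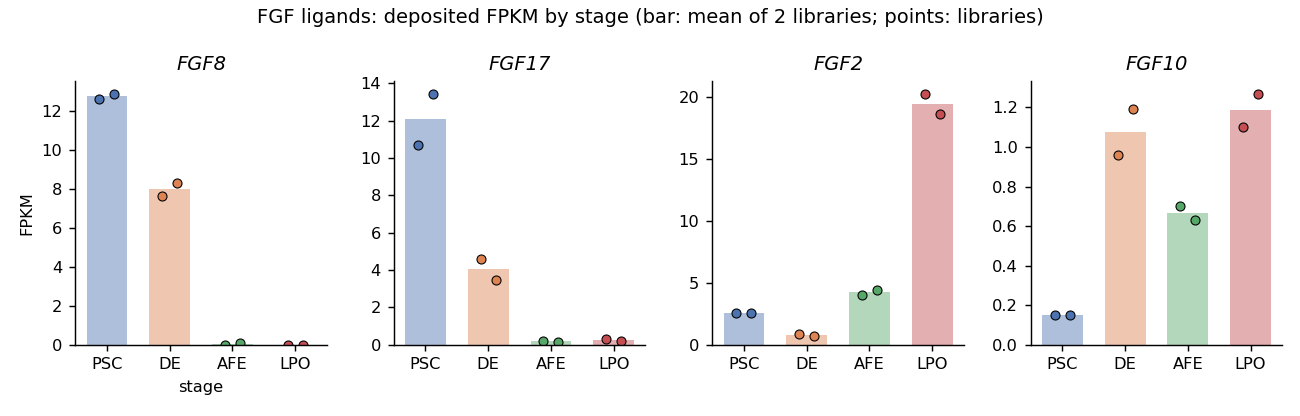
FPKM of the 4 FGF ligands in each of the 8 libraries, by stage in the order of differentiation; points are libraries and bars their mean (n = 2). FGF8 and FGF17 are high in PSC and near 0 in AFE and LPO, FGF2 reaches 19.4 FPKM in LPO, and FGF10 stays at or under 1.27 FPKM.

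FGF8 and FGF17, ligands of the same FGF subfamily, were both expressed in PSC and DE and almost gone from AFE on. FGF8 (chromosome 14, 112808162 to 112814248, minus strand) had 12.6 and 12.9 FPKM in PSC, 7.65 and 8.31 in DE, 0 and 0.11 in AFE, and 0 in both LPO libraries. The AFE level rests on 10 counts in 1 library, about 2.5 read pairs if 4 counts are 1 pair. DE against PSC was not called (1.56-fold lower in DE, log2 change -0.64, SE 0.48, adjusted p = 0.297), although both DE libraries lay below both of PSC. The call appeared under 6 alternatives, among them the fit of those 4 libraries alone (log2 change -0.66, adjusted p = 0.0159). The later falls were large. By scaled counts pooled over the libraries of a stage, FGF8 was 128-fold lower in AFE than in DE (95% counting interval of the ratio 39.6 to 773). In the same way it was 199-fold lower in AFE than in PSC (61.7 to 1200). These intervals leave out the spread between libraries. The edgeR fit gave log2 changes of -6.96 (adjusted p = 4.7e-04) and -7.60 (adjusted p = 1.2e-04). Without AFE replicate 2, the remaining AFE library was at 0 and the falls were at least 53.9-fold and at least 84.1-fold, against a floor of 3 read pairs per library. FGF8 was at least 110-fold lower in LPO than in PSC (adjusted p of the edgeR fit = 3.7e-05) and at least 70.2-fold lower in LPO than in DE (adjusted p of the edgeR fit = 6.6e-05). Between LPO and AFE no fold can be given, as both stages lay at or under the floor.

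FGF17 (chromosome 14, 6309735 to 6315882, plus strand) had 10.7 and 13.5 FPKM in PSC, 4.62 and 3.49 in DE, 0.22 and 0.15 in AFE and 0.30 and 0.19 in LPO. Unlike FGF8 it was still counted in every library, at 19 to 36 counts in AFE and LPO. It fell 2.90-fold in DE against PSC (log2 change -1.54, SE 0.27, adjusted p = 0.00194) and 20.7-fold in AFE against DE (log2 change -4.37, SE 0.34, adjusted p = 5.6e-05). LPO against AFE was not called (log2 change -0.09, SE 0.37, adjusted p = 0.852), and its sign turned with the scaling. LPO was 64-fold below PSC (log2 change -6.00, SE 0.35, adjusted p = 1.8e-06).

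FGF2 was lowest in DE and rose at each step after it. Its gene lies on chromosome 8 at 101278885 to 101343916 (minus strand). FPKM was 2.59 and 2.53 in PSC, 0.90 and 0.73 in DE, 4.01 and 4.44 in AFE, and 20.3 and 18.6 in LPO. LPO stood far above the rest, and the libraries of each stage lay close together; every pair of stages was called. FGF2 was 3.06-fold lower in DE than in PSC (log2 change -1.61, SE 0.13, adjusted p = 2.2e-05), 5.35-fold higher in AFE than in DE (log2 change 2.42, SE 0.13, adjusted p = 1.1e-05) and 3.26-fold higher in LPO than in AFE (log2 change 1.71, SE 0.12, adjusted p = 8.2e-06). LPO stood 17.5-fold above DE, at deposited counts of 8659 and 7906 in LPO against 379 and 304 in DE (adjusted p = 3.0e-07). FGF2 overlaps NUDT6 on the opposite strand over 5602 bases. The libraries were made to keep strand, but whether the counting used it is not stated. NUDT6 had counts equal to 28.0% and 38.8% of those of FGF2 in the DE libraries, and to 0.993% to 5.55% in the other libraries. These shares neither measure nor bound the reads of NUDT6 that may have been counted for FGF2, so the DE level of FGF2 stays uncertain. The LPO rise, too, stood beside the higher mesenchymal markers in LPO, and their part in it was not tested.

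FGF10 was the scarcest of these 4 ligands in PSC and was present at a low level from DE on. The gene lies on chromosome 16 at 28695470 to 28777509 (minus strand). FPKM was 0.15 in both PSC libraries, 0.96 and 1.19 in DE, 0.70 and 0.63 in AFE and 1.1 and 1.27 in LPO, from deposited counts of 22 to 334. PSC stood below all later libraries, while DE and LPO overlapped in FPKM. In DE, FGF10 was 7.47-fold above PSC (log2 change 2.90, SE 0.32, adjusted p = 1.4e-04). Of 13 mesenchymal markers, 10 were called higher and 0 lower at that step by edgeR (the same at an unadjusted p under 0.05). Of all genes, 30.8% and 23.0% were called higher and lower. The median log2 change of these markers was 5.74, but 0.36 with genes at 0 set to their bound. Some lay near the floor in DE, such as DCN (13 and 15 counts) and TBX4 (17 and 16 counts). Of 4 endothelial and blood markers, 3 were higher and 1 lower. PDGFRA had 9.75 and 7.96 FPKM in DE, against 0.04 and 0 FPKM in PSC. These are levels of marker messages, and whether such cells were present in DE was not tested, nor was their part in the rise. None of the differences among the later stages was called on TMM-scaled counts. AFE against DE had a log2 change of -0.64 (adjusted p = 0.123), LPO against AFE one of 0.34 (adjusted p = 0.346) and LPO against DE one of -0.31 (adjusted p = 0.374). AFE against DE was called lower with limma on log2(FPKM + 1) (log2 change -0.32, adjusted p = 0.0235). It was also called lower with limma on rescaled FPKM (log2 change -0.50, adjusted p = 0.023). With total counts LPO against AFE was called (log2 change 0.82, adjusted p = 0.0368), and the sign of LPO against DE turned (log2 change 0.14, adjusted p = 0.681). LPO was 6.03-fold above PSC (log2 change 2.59, SE 0.32, adjusted p = 1.5e-04). Mesenchymal markers, the cell type that makes FGF10 in the mouse lung, summed to 2750 and 2800 FPKM in LPO, against 263 and 265 FPKM in PSC (VIM alone making up 261 and 264), and their part in this difference was not tested.

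Summed over these 4 ligands, FPKM was 26.0 and 29.0 in PSC, 14.1 and 13.7 in DE, 4.93 and 5.33 in AFE and 21.6 and 20 in LPO. The PSC sum was mostly FGF8 and FGF17 and the LPO sum mostly FGF2, at means of 19.4 FPKM for FGF2 and 1.18 FPKM for FGF10.

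**Figure D4:**
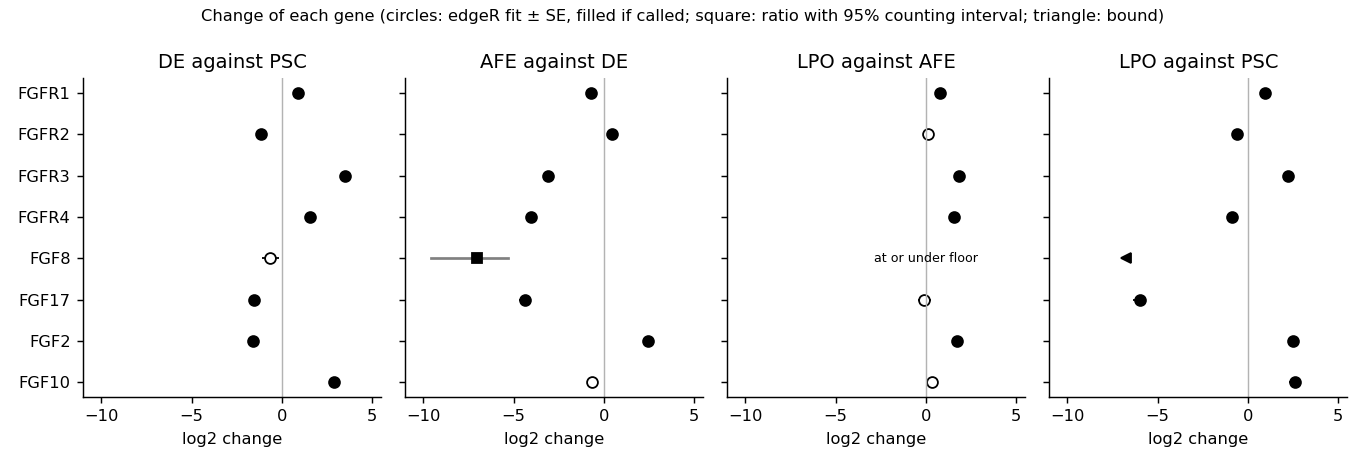
Log2 change of each member in 4 comparisons, from TMM-scaled counts: circles with bars of 1 SE, filled where called. The square for FGF8 is a ratio of scaled counts pooled over the libraries of a stage, with its 95% counting interval. The triangle is a bound. FGFR3 and FGFR4 rise, fall and rise again over the 3 steps, and FGF2 falls and then rises at both later ones.

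The rest of the FGF ligand genes offered few that were well expressed. Of 18 further ligand genes, 16 were in the table and 13 passed the filter; FGF7 and FGF13 were not analysed here. In DE against PSC, 4 were called higher and 3 lower, and in AFE against DE 2 and 3. LPO against AFE had 4 and 3, and LPO against PSC 5 and 4. Of all genes, 30.8% and 23.0%, 17.9% and 17.4%, 30.2% and 29.6%, and 41.5% and 28.8% were called higher and lower in those comparisons. The same shares apply beside the counts of the later lists and of the markers above. Median log2 changes of these ligand genes were -0.53, 0.00, -0.02 and 2.03 in those comparisons, against 0.08, 0.00, 0.09 and 0.49 for all genes. With genes at 0 in a stage set to their bound, the medians of DE against PSC and LPO against PSC became 0.00 and 1.65. Those called higher in LPO against PSC numbered 9 on rescaled FPKM and 1 with a filter of 5 FPKM, and in AFE against DE 4 with limma on log2(FPKM + 1) and 0 with that filter. FGF11, an intracellular member that is not secreted, had mean levels of 3.14 FPKM in PSC, 25.3 in DE, 3.78 in AFE, then 54.2 in LPO. FGF19, an endocrine ligand of FGFR4, was highest in PSC at 23.5 FPKM and stood at 7.18 in DE, 3.06 in AFE and 3.26 in LPO. It fell 3.18-fold in DE against PSC (adjusted p = 2.2e-04) and 2.26-fold in AFE against DE (adjusted p = 0.00308). FGF12 and FGF14, both also intracellular, were highest in PSC, at 5.20 and 1.56 FPKM. FGF3, FGF6, FGF9, FGF20 and FGF22 were at 0 in PSC, and FGF3 and FGF4 were at 0 in LPO.

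Co-receptors and extracellular modulators mostly rose at the first step. Of the 20 in the table, 12 were called higher and 4 lower in DE against PSC, 9 and 4 in AFE against DE, 6 and 4 in LPO against AFE, and 14 and 2 in LPO against PSC. The medians were 1.56, 0.48, 0.15 and 2.57, against 0.08, 0.00, 0.09 and 0.49 for all genes; with genes at 0 set to their bound, the first and last were 0.79 and 1.98. On rescaled FPKM, LPO against AFE had 16 called higher and 1 lower. FGFBP2, ANOS1 and SDC4 were not analysed here. Glypicans are heparan sulfate proteoglycans of the cell surface. GPC3 rose 15.3-fold in AFE against DE (adjusted p = 1.2e-06), with mean levels of 88.4 FPKM in AFE and 5.96 FPKM in DE. GPC1 rose 7.09-fold in DE against PSC (adjusted p = 1.5e-07), whereas GPC4 fell 8.89-fold there (adjusted p = 3.9e-07), to 6.99 FPKM in DE, against 63.6 FPKM in PSC. FLRT3, a membrane protein that binds FGF receptors, peaked in DE at 40 FPKM, against 0.975 FPKM in PSC, a 41.9-fold rise (adjusted p = 7.4e-07), and fell 9.69-fold in AFE against DE (adjusted p = 1.1e-05). FGFRL1, a receptor without a kinase domain, chosen after its values were seen, had 16.9 and 17.0 FPKM in DE, against 1.39 and 1.78 FPKM in PSC.

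Most transducers downstream of the receptors were higher in LPO than in PSC. Besides adaptors and the RAS to ERK cascade, the list held PIK3CA, PIK3R1, PLCG1 and CBL, all called higher there. Of 22, all in the table and all tested, 12 were called higher and 1 lower in DE against PSC, 2 and 8 in AFE against DE, 14 and 5 in LPO against AFE, and 16 and 2 in LPO against PSC. On rescaled FPKM, 13 were called lower in AFE against DE and 1 in LPO against AFE. Medians were 0.74, -0.22, 0.58 and 1.44, against 0.08, 0.00, 0.09 and 0.49 for all genes. PIK3R1, a regulatory subunit of PI3-kinase, had mean levels of 0.55 FPKM in PSC, 10.6 in DE, 6.59 in AFE, then 33.5 in LPO, and was 45.8-fold higher in LPO than in PSC (adjusted p = 4.1e-08). GAB1, an adaptor downstream of FRS2, was 30.8-fold higher in LPO than in PSC (adjusted p = 5.7e-08). MAPK3 (ERK1) rose 3.96-fold in DE against PSC (adjusted p = 1.1e-06) and was not called at either later step. ARAF, a RAF kinase, was highest in AFE at 72.7 FPKM.

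**Figure D5:**
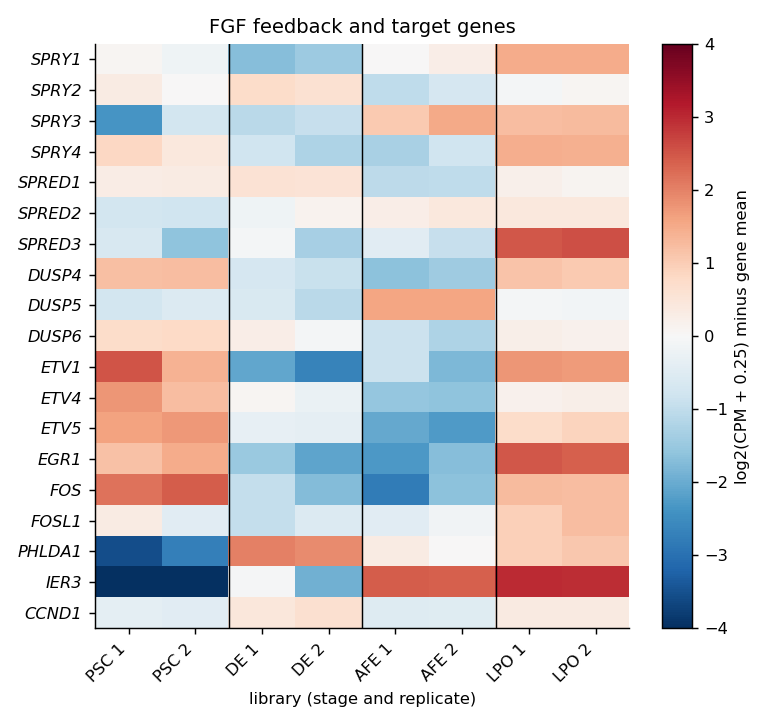
Heat map of 19 feedback and target genes of FGF to ERK signalling in the 8 libraries; colour is log2(CPM + 0.25) minus the mean of the gene, limited at 4 in either direction (IER3 in PSC lies beyond). Most genes are higher in LPO than in AFE (15 of 19 called), and ETV5, DUSP4 and EGR1 are low in both DE and AFE.

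Feedback and target genes of the pathway were often lower in DE and mostly rose in LPO. Of 19, all tested, 6 were called higher and 9 lower in DE against PSC, beside 30.8% and 23.0% of all genes. AFE against DE had 3 and 8, beside 17.9% and 17.4%. LPO against AFE had 15 and 1, beside 30.2% and 29.6%. LPO against PSC had 11 and 4, beside 41.5% and 28.8%, and 1 was called lower there on rescaled FPKM. Medians were -0.66, -0.22, 1.38 and 0.79, against 0.08, 0.00, 0.09 and 0.49 for all genes. ETV5, a transcription factor that ERK induces and that marks the distal lung bud in the mouse, had mean levels of 23.5 FPKM in PSC, 5.68 in DE, 1.51 in AFE, then 17.3 in LPO. It was 4.03-fold lower in DE than in PSC (adjusted p = 3.7e-06), 3.63-fold lower in AFE than in DE (adjusted p = 1.9e-05) and 8.11-fold higher in LPO than in AFE (adjusted p = 5.4e-07). DUSP4, a phosphatase that switches off ERK, had 19.9, 4.86, 2.72 and 24.1 FPKM in PSC, DE, AFE and LPO. EGR1, an immediate early gene, was 22.2-fold higher in LPO than in AFE (adjusted p = 4.2e-06), with mean levels of 43.2 FPKM in LPO and 1.38 FPKM in AFE. PHLDA1 ran otherwise: it rose 37.8-fold in DE against PSC (adjusted p = 2.9e-06), with mean levels of 8.98 FPKM in DE and 0.245 FPKM in PSC. In DE the 4 receptors summed to 105 and 99.7 FPKM, against 52.4 and 46.1 FPKM in PSC. The 4 ligands summed to 14.1 and 13.7 FPKM in DE, against 26.0 and 29.0 FPKM in PSC. Of these 19 genes, 9 were called lower and 6 higher in DE than in PSC. A link between these levels was not tested. The rise of this list in LPO against AFE stood beside 12 of 13 mesenchymal markers and the 3 tested neural markers called higher, PAX6 among them at a low level. Their part in it was not tested. Messenger RNA levels alone were measured, not signalling, and other pathways also act on these genes.

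As a description, the genes whose course over the 8 libraries lay nearest that of each member were ranked among 8936 genes that had a symbol and reached 5 FPKM in a stage. Likeness was the root mean square difference of centred log2 CPM, so a value of 1 is a typical gap of 2-fold. FGFR1 lay nearest PJA1 (0.0782), TTYH2 (0.119) and FCGRT (0.119), and FGFR2 nearest KCNK1 (0.101), CCDC6 (0.103) and ATP6V1B2 (0.121). FGFR3 lay nearest MPZL2 (0.300), SRC (0.314) and GABRE (0.334), and FGFR4 nearest APH1B (0.310), SUSD2 (0.328) and GFRA2 (0.419). For FGF2 they were GPX7 (0.121) and SULT1A3 (0.233), and for FGF10 IGHMBP2 (0.141), CERK (0.148) and PCDH1 (0.153). FGF8 had no close neighbour, the nearest being ZSCAN10 (0.732), GDF3 (0.970) and RSPO1 (1.12). FGF17 had RIPPLY2 at 0.278, well ahead of TUBB3 (0.620) and HESX1 (0.706).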

How the data were processed

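Per the labels' protocols, messenger RNA was captured with oligo(dT) beads, made into strand-marked libraries and read from both ends (Illumina NovaSeq). Tools listed in the submitters' processing notes are cutadapt 1.9, HISAT2 2.2.1 and StringTie 2.1.6, besides DESeq2 and edgeR, with no roles; a build of the genome is not given there. The authors deposited 1 table of 25578 genes, whose expected counts (estimated counts per gene) are whole numbers and unscaled between libraries. The same table holds FPKM computed by the authors. The deposited FPKM follow the counts: for 99.9% of 8847 genes with at least 1 FPKM in all 8 libraries, the count per FPKM, divided by the library's total count, varied by less than 1.1 times. Column headers were matched to stages through the sample labels, and 0 columns were left unused. Symbols came from the table, a reference table of gene names supplied 130 more, and 10013 genes had none.

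Genes kept by filterByExpr (19346) were scaled by TMM and fitted in edgeR 4.0.16 (glmQLFit and glmQLFTest, R 4.3.3) with the 4 stages as groups over all 8 libraries (4 residual degrees of freedom). P-values were adjusted over all genes within a comparison. The SE is the size of the log2 change divided by the square root of F. Folds against a stage at 0 use a floor of 3 read pairs (12 counts) per library. Figures used Python 3.11.15 with matplotlib 3.10.9.

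The members, lists and naming rule were chosen with earlier results of these data known. All 8 members are named, with up to 4 called genes of each list by the smallest adjusted p of the F test, and for each member the 3 nearest genes. One of the genes this rule names is not reported here. Alternatives were no filter on low counts, keeping genes with 5 FPKM in 2 libraries, size factors of DESeq2, total counts, the DESeq2 1.42.0 Wald test, limma 3.58.1 on log2 FPKM with pseudocounts of 1 and 0.1 and on FPKM rescaled to a sum of 1e6 per library, counts divided by 4, the replicate number as a block, only the 4 libraries compared, and leaving out each library.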

Additional observations from a re-analysis of the deposited data

How the results depend on the processing

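With 2 libraries a stage, the spread of each gene has 4 residual degrees of freedom of its own. The edgeR fit draws it towards a trend over all genes tested, and the errors and p-values rest on both. FGF8, FGF10 and FGF17 rest on few read pairs where they are low. Over the member changes and alternatives, 833 values kept direction and call, 14 lost the call, 23 gained one and 17 turned direction. Members called lower in LPO against AFE numbered 0, and 1 (FGF8) with no filter, with the 5 FPKM filter and with the DESeq2 Wald test; leaving out each library gave 0 to 1. On rescaled FPKM, 2 members were called lower in LPO against PSC, against 4, and 4 higher in LPO against DE, against 2. FGF10 did not pass the 5 FPKM filter.

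Changes that turned direction were these, as log2 changes. FGFR1 in AFE against PSC was -0.01 with DESeq2 size factors, with the Wald test and without PSC replicate 2 (range over left-out libraries -0.01 to 0.35), and in LPO against DE -0.01 without either LPO library (range -0.01 to 0.03). FGFR2 in LPO against PSC was 0.18 on rescaled FPKM. FGF10 in LPO against DE was 0.14 with total counts and 0.08, 0.13 and 0.36 with limma (pseudocount 1, 0.1, and rescaled FPKM). FGF17 in LPO against AFE was 0.18 with the 5 FPKM filter, 0.39 with total counts, 0.07, 0.27 and 0.29 with limma, 0.20 without AFE replicate 1 and 0.19 without LPO replicate 2 (range over left-out libraries -0.50 to 0.20). Of these, FGFR2 in LPO against PSC and FGF10 in LPO against DE were called on rescaled FPKM, and the cause was not tested.

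Alternatives for pathway genes were added after the data were seen. GPC3 in LPO against AFE turned to 0.02 on rescaled FPKM. GPC4 there turned to 0.00 with the 5 FPKM filter, 0.22 with total counts and 0.20, 0.22 and 0.63 with limma. ESRP1 in LPO against PSC turned to 0.06 with total counts and 0.05, 0.05 and 0.43 with limma. Of 80 pathway changes called, 13 were lost or turned under at least 1 of 19 alternatives.

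The replicate numbers share only a number: the correlation between stages of the difference of library 1 and 2 lay between -0.0136 and 0.00782. With the replicate number as a block, 5644 genes were higher and 4115 lower by the test in DE against PSC, 3077 and 3060 in AFE against DE and 5278 and 5510 in LPO against AFE, against 5962 and 4453, 3467 and 3371, and 5842 and 5732 without it. The block changed no member's call; FGF14 in AFE against DE lost its call (log2 change 1.44, adjusted p = 0.0605).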

Other observations

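The enzymes that build and trim heparan sulfate, which FGFs need to bind their receptors, were mostly higher in LPO than in PSC. Of 16 in the table, 15 passed the filter, with 8 called higher and 2 lower in DE against PSC, 4 and 5 in AFE against DE, 7 and 1 in LPO against AFE, and 12 and 1 in LPO against PSC. With limma on log2(FPKM + 1), 13 were called higher in LPO against AFE. Medians were 0.58, -0.22, 0.78 and 1.35 on the log2 scale, against 0.08, 0.00, 0.09 and 0.49 for all genes; with genes at 0 set to their bound, those of LPO against AFE and LPO against PSC were 0.60 and 1.18. SULF1, which removes sulfate groups from heparan sulfate outside the cell, was 5.22-fold higher in LPO than in AFE (adjusted p = 1.1e-06), with mean levels of 11.1 FPKM in LPO and 1.5 FPKM in AFE. NDST1, which starts sulfation of the chain, was 6.90-fold higher in DE than in PSC (adjusted p = 5.5e-06) and 2.15-fold higher in LPO than in AFE (adjusted p = 4.0e-04). EXTL3, a chain-starting enzyme, was 5.99-fold higher in LPO than in PSC (adjusted p = 5.1e-07), and HS2ST1, a sulfotransferase, 2.93-fold higher in DE than in PSC (adjusted p = 2.0e-06).

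Of 4 splicing regulators known to act on FGFR2, 2 were called higher and 1 lower in DE against PSC, 0 and 2 in AFE against DE, 2 and 0 in LPO against AFE, and 1 and 1 in LPO against PSC. On rescaled FPKM, 4 were called higher in LPO against AFE and 4 in LPO against PSC. The counts of 0 were also 0 at an unadjusted p under 0.05 in edgeR and with the DESeq2 Wald test. In the fit of only the 4 libraries compared, 1 was called lower in LPO against AFE. Medians were 0.60, -0.50, 0.28 and 0.29, against 0.08, 0.00, 0.09 and 0.49 for all genes. ESRP1, which favours the epithelial form, averaged 25.5 FPKM (PSC), 15.3 (DE), 13.1 (AFE) and 26.4 (LPO); in CPM it was 1.62-fold lower in DE than in PSC (adjusted p = 1.8e-04) and 1.43-fold higher in LPO than in AFE (adjusted p = 7.1e-04). RBFOX2 was 3.03-fold higher in LPO than in AFE (adjusted p = 5.5e-06), at 22.4 FPKM in LPO and 5.24 FPKM in AFE. ESRP2 had 11.6 ± 6.02 FPKM in DE and 2.66 ± 0.311 FPKM in PSC (SD, n = 2 each), 4.47-fold higher in DE (adjusted p = 7.8e-04). FGFR2 itself could not be split by form.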
